A study of Homo sapiens with 12 samples.

Results

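MT-TG and MT-TR, the mitochondrial genes of mt-tRNA Gly and mt-tRNA Arg, lie on either side of MT-ND3 and are 2 of the 22 mt-tRNA genes whose 3′ ends were read by MPAT-Seq, a targeted sequencing of mitochondrial RNA ends. They were chosen by position and not by a measured value. Without PDE12, reads of mt-tRNA Gly that ran on beyond the CCA end rose from 2.87% to 11.3%. Those of mt-tRNA Arg showed no difference detectable at their depth (8.35% and 8.05%). With at least 6 added bases, a length chosen after the values were seen, they were more frequent (17 of 1557 and 19 of 435 reads). By that length, 18 of 22 mt-tRNAs (81.8%) rose at least 2-fold with intervals apart. The mt-tRNAs Gly and Arg were both extended far more often when mtPAP, the mitochondrial poly(A) polymerase, was overexpressed without PDE12, in 54.4% and 43.7% of reads. Against PDE12 loss alone, 13 of 22 mt-tRNAs (59.1%) rose at least 2-fold with intervals apart. In that mtPAP library the median of the other 20 was 89.6%, and 18 of them lay above each of these 2. There the genotype follows the title line of the table, and the label gives the other one. The reads of mt-tRNA Arg were few, between 126 and 6440 per library, against 11778 to 93317 for mt-tRNA Gly.

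Human mitochondria transcribe both strands of their genome as long precursors in which tRNA genes punctuate the mRNA genes. Cleavage at both ends of a tRNA, by mitochondrial RNase P at the 5′ end and ELAC2 at the 3′ end, frees the tRNA and the mRNA beside it. The nucleotidyltransferase TRNT1 then adds CCA to the last base of the tRNA, the discriminator base, and the amino acid is later joined to the final A. The polymerase mtPAP adds poly(A) tails to mt-mRNAs, and PDE12 is a mitochondrial 3′ to 5′ exoribonuclease that removes A residues. The mt-tRNAs Gly and Arg each serve all codons of their amino acid. MT-ND3 encodes a subunit of complex I, the NADH dehydrogenase of the respiratory chain, and excision of these tRNAs sets both ends of its mRNA.

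The cells were HEK293T, a line derived from human embryonic kidney, of a Flp-In T-REx background. PDE12+/+ cells carried the intact gene. PDE12-/- cells were 1 clone made with zinc finger nucleases. In 2 further conditions, PDE12-/- cells expressed a tagged PDE12 from a doxycycline-inducible transgene, either the wild-type enzyme (PDE12-/- + WT) or the E351A mutant (PDE12-/- + E351A), which lacks catalytic activity. In the last 2 conditions, mtPAP was overexpressed from an inducible transgene in PDE12+/+ and in PDE12-/- cells. MPAT-Seq was done on total RNA with 1 library for each of the 6 conditions. Without replicates, no p-value is given for MPAT-Seq, and the 95% intervals (Wilson for shares, Newcombe for differences) cover counting error only. RNA-seq was done on isolated mitochondria from PDE12+/+ and PDE12-/- cells, with 3 samples each. The 2 mtPAP tables go against their labels: the table labelled PDE12+/+ + mtPAP is titled PDE12-/- with mtPAP, and the other table is titled in reverse. The titles were followed here, as the sheets of the study's source data carry the same names. Wherever an mtPAP library is named by genotype, its label gives the other genotype, so any difference between these 2 libraries turns its sign under the labels. Differences from the libraries without mtPAP are given both ways.

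The genes adjoin their neighbours without a gap along the + strand of mitochondrial DNA (GRCh38). MT-TG (ENSG00000210164.1, chrM:9991-10058, 68 nt) follows MT-CO3, and MT-TR (ENSG00000210174.1, chrM:10405-10469, 65 nt) follows MT-ND3 and precedes MT-ND4L. The sequences below show what MPAT-Seq could read: the bases matched by each gene-specific primer are in capitals, and the 39 bases of MT-TG and 38 bases of MT-TR after them were read through to the 3′ end.
MT-TG gene: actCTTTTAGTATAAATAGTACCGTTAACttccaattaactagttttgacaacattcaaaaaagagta
MT-TR gene: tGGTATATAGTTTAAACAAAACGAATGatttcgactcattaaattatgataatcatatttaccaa
In the genome, the discriminator base, in capitals, is followed by the first bases of the next gene, and CCA is not encoded there. Counting the discriminator base as 0, the next gene encodes A at +1 of both mt-tRNAs. MT-ND3 also encodes A at +3, +4 and +5 of MT-TG, and C, T and T at +6 to +8. A at any of these positions thus matches the genome too. MT-ND4L encodes no A from +2 to +8 of MT-TR.
MT-TG into MT-ND3: Aataaacttcgc
MT-TR into MT-ND4L: Aatgcccctcat
The most frequent base at each position of the reads, from the discriminator base on, spelled CCA, in capitals, and then A residues in both mt-tRNAs of PDE12-/- cells. Positions with more than 10 reads are shown.
MT-TG reads, PDE12-/-: aCCAaaaaaaaa
MT-TR reads, PDE12-/-: aCCAaaaaaaa

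Position +3 is the A of CCA and +4 the first base behind it, and the percentage extended gives how many of the reads that reach +3 also reach +4. A count of 3 reads among those at +3, taken as the floor, was 0.00500% for MT-TG in PDE12+/+ and 0.193% for MT-TR. The depth of MT-TR was least with mtPAP, where 126 reads reached +3 in PDE12+/+ and 135 in PDE12-/-, which leaves a floor of 2.38% and 2.22%. Of the 22 mt-tRNAs, MT-TG ranked between 2 and 9 by depth and MT-TR between 18 and 20.

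In PDE12+/+ cells, 1723 of 59954 MT-TG reads were extended, 2.87% (interval 2.74% to 3.01%). In PDE12-/- cells, 4249 of 37457 were, 11.3% (interval 11.0% to 11.7%). The difference was 8.47 percentage points (interval 8.12 to 8.82), a 3.95-fold rise. For MT-TR, 130 of 1557 reads were extended in PDE12+/+, 8.35% (interval 7.08% to 9.83%). In PDE12-/-, 35 of 435 were, 8.05% (interval 5.84% to 11.0%). The difference of -0.30 points had an interval from -2.96 to 2.90, so at this depth a rise of up to 2.90 points could not be told from no change. A share was called changed where it differed at least 2-fold and the intervals did not overlap. By that rule, 10 of 22 mt-tRNAs (45.5%) were called higher in PDE12-/-, and MT-TG was 1 of them. Of the other 20 mt-tRNAs, 12 had a larger signed difference than MT-TG and 17 a larger one than MT-TR, and their median was 11.5 points.

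Expression of wild-type PDE12 in PDE12-/- cells brought MT-TG to 2.93% (955 of 32601 reads, interval 2.75% to 3.12%), 8.41 points below PDE12-/- (interval of the difference -8.78 to -8.05). MT-TR stood at 5.78% (49 of 848 reads, interval 4.40% to 7.56%), and its difference of -2.27 points had an interval from -5.51 to 0.56. Here 17 of 22 mt-tRNAs (77.3%) were called lower than in PDE12-/-, MT-TG among them and MT-TR not. The MT-TR call depended on the count used: it was called lower over all reads at the discriminator base (2.45% against 7.32%, 2.99-fold) and with at least 2 added bases (1.53% against 4.83%, 3.15-fold). With the E351A mutant, MT-TG was extended in 67.4% of reads (62885 of 93317, interval 67.1% to 67.7%), 56.0 points above PDE12-/- and 5.94-fold higher. Only 1 of the other 20 mt-tRNAs had a larger difference. In points, mt-tRNAs already extended often in PDE12-/-, such as MT-TK (Lys, 91.1%) and MT-TH (His, 89.9%), could not have risen as far. MT-TR was extended in 22.1% (1423 of 6440 reads, interval 21.1% to 23.1%), 14.1 points above PDE12-/- (interval 10.9 to 16.5) and 2.75-fold higher. Both were called higher, as were 11 of 22 mt-tRNAs (50%).

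With mtPAP in PDE12+/+ cells, MT-TG was extended in 5.87% of reads (1171 of 19957, interval 5.55% to 6.20%), 2.04-fold the level without added mtPAP. MT-TR was extended in 16.7% (21 of 126 reads, interval 11.2% to 24.1%). Its fold of 1.996 missed the 2-fold limit, so of both only MT-TG was called, as were 10 of 22 mt-tRNAs in all (45.5%). Both lay near the limit: MT-TR was called with only A counted at +4 (16.7% against 7.00%) or at least 2 added bases (16.7% against 3.15%, 5.30-fold), and MT-TG was not over all reads at the discriminator base (4.86% against 2.68%, 1.81-fold). In PDE12-/- cells with mtPAP, MT-TG was extended in 54.4% (6408 of 11778 reads, interval 53.5% to 55.3%) and MT-TR in 43.7% (59 of 135 reads, interval 35.6% to 52.1%). Against PDE12-/- without mtPAP, these were rises of 43.1 and 35.7 points, and both were called, as were 13 of 22 mt-tRNAs (59.1%). Between genotypes under mtPAP, the differences were 48.5 points for MT-TG (interval 47.6 to 49.5) and 27.0 points for MT-TR (interval 16.03 to 37.10), and both were called, as were 14 of 22 (63.6%). Over all reads at the discriminator base, the MT-TR difference was 15.2 points (30.4% against 15.2%), and at 1.9985-fold it was no longer called. Read by the labels, the genotypes change places, so the last differences become -48.5 and -27.0 points. Against the library without mtPAP, MT-TG would then differ by 51.5 points in PDE12+/+ and -5.48 in PDE12-/-, and MT-TR by 35.4 and 8.62.

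**Figure D1:**
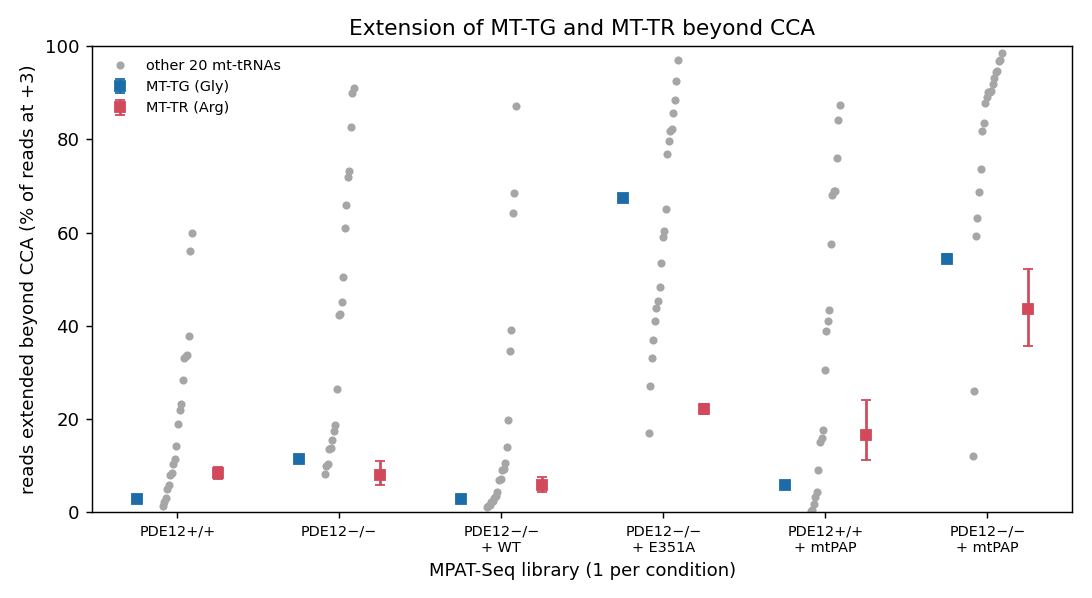
Percentage of reads at +3 that were extended beyond CCA (y axis) in the 6 MPAT-Seq libraries (x axis), with 95% Wilson intervals for MT-TG (blue) and MT-TR (red) and without them for the other 20 mt-tRNAs (grey, sorted). MT-TG lies below MT-TR in PDE12+/+, in PDE12-/- + WT and in PDE12+/+ with mtPAP, and above it in the other 3 libraries, with the widest gap in PDE12-/- + E351A (67.4% and 22.1%).

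By the percentage extended, the order of both mt-tRNAs turned with the condition. MT-TG minus MT-TR was -5.48 points in PDE12+/+ (interval -6.96 to -4.19), -2.85 in PDE12-/- + WT and -10.8 in PDE12+/+ with mtPAP. It was 3.30 points in PDE12-/- (interval 0.34 to 5.53), 45.3 in PDE12-/- + E351A and 10.7 in PDE12-/- with mtPAP. These 6 intervals all left out 0. When at least 2 added bases were required, the difference in PDE12+/+ was -0.71 points (interval -1.71 to 0.06) and that in PDE12-/- + WT was 0.99 (interval -0.10 to 1.65), so the order in these libraries rested on reads with a single added base. In PDE12+/+ with mtPAP the difference stayed at -11.2 points with at least 2 added bases (interval -18.7 to -5.72). In that library 13 of 21 extended MT-TR reads held exactly 5 added bases. When at least 6 were required, no library had MT-TG below MT-TR beyond counting error. The difference was then 0.45 points in PDE12+/+ with mtPAP (interval -4.54 to 2.73) and 4.03 in PDE12-/- with mtPAP (interval -4.46 to 12.1), 0.39 in PDE12+/+ and 0.68 in PDE12-/- + WT, all with intervals that included 0. It was 4.38 in PDE12-/- (interval 2.01 to 5.96) and 55.1 with E351A.

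Added tracts were longer on MT-TG than on MT-TR in most libraries. MT-TG reads extended in PDE12+/+ carried 5.07 ± 2.71 bases (mean ± SD over 1723 reads), and those of PDE12-/- 6.43 ± 1.92 (4249 reads). The mean was 5.97 ± 2.41 in PDE12-/- + WT, 7.16 ± 1.18 in PDE12-/- + E351A, and with mtPAP 6.13 ± 2.05 in PDE12+/+ and 6.67 ± 1.26 in PDE12-/-. The MT-TG mean was lowest in PDE12+/+, and the libraries with active PDE12 from the transgene or with mtPAP lay above it as well. With tails of at least 2 bases only, it was 5.81 in PDE12+/+, 6.59 in PDE12-/- and 6.77 in PDE12-/- + WT. MT-TR tails were shorter in 5 of the 6 libraries, at 2.12 ± 1.94 bases in PDE12+/+ (130 reads), 4.26 ± 2.78 in PDE12-/- (35 reads), 2.27 ± 2.17 in PDE12-/- + WT (49 reads), 3.49 ± 2.83 in PDE12-/- + E351A (1423 reads) and 5.05 ± 1.16 in PDE12+/+ with mtPAP (21 reads). In PDE12-/- with mtPAP they reached 7.51 ± 1.17 (59 reads), above MT-TG. With tails of at least 2 bases only, the MT-TR mean in PDE12-/- was 6.43 (21 reads), close to the 6.59 of MT-TG. In the other libraries without mtPAP it stayed below that of MT-TG. Reads of both thinned out at +11, the eighth added base: 31486 MT-TG reads of PDE12-/- + E351A reached +11 and 7 reached +12, so longer tails may have gone uncounted.

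A single added base was the most frequent tail of MT-TR in the 4 libraries without mtPAP. It made up 81 of 130 extended reads in PDE12+/+ (62.3%), 14 of 35 in PDE12-/- (40.0%), 36 of 49 in PDE12-/- + WT (73.5%) and 670 of 1423 in PDE12-/- + E351A (47.1%). In MT-TG it made up 15.3%, 2.82%, 13.9% and 0.953% in the same order. Added bases were counted by position, so a read with the encoded A at +1 ahead of CCA would count as 1 added base too. As a share of the reads at +3, MT-TR reads with 1 added base were 5.20% in PDE12+/+ (interval 4.21% to 6.42%) and 3.22% in PDE12-/- (interval 1.93% to 5.33%), and their intervals overlapped. They were 4.25% in PDE12-/- + WT and 10.4% in PDE12-/- + E351A (interval 9.68% to 11.2%), above PDE12-/- with intervals apart. With mtPAP there were 0 such reads of 126 in PDE12+/+ and 1 of 135 in PDE12-/-.

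When the tail had to hold at least 6 bases, a length chosen after the values were seen, MT-TR did differ between genotypes. Such reads were 17 of 1557 in PDE12+/+, 1.09% (interval 0.68% to 1.74%), and 19 of 435 in PDE12-/-, 4.37% (interval 2.81% to 6.72%), which is 4.00-fold higher. The call held for each least length from 3 to 7 bases and was not made at 1, 2 or 8. MT-TG went from 1.48% to 8.75%, 5.91-fold higher. By the same rule 18 of 22 mt-tRNAs (81.8%) were called higher, both of these among them. In PDE12-/- + WT, tails of at least 6 bases were found in 2.10% of MT-TG reads and 1.42% of MT-TR reads (12 of 848). Both were called lower than in PDE12-/-, as were 19 of 22 mt-tRNAs (86.4%). At +5 and at +6 of that library, 12 of 13 MT-TR reads had C, so its long MT-TR reads were not A tails throughout. With E351A, tails of at least 6 bases were found in 63.0% of MT-TG and 7.84% of MT-TR reads. MT-TG was called higher and MT-TR, at 1.80-fold, was not, beside 9 of 22 mt-tRNAs (40.9%). For MT-TR this depended on the length. It was called higher at least lengths of 1, 2, 3, 7 (2.35-fold) and 8 bases. At 4, 5 and 6 bases the intervals were apart but the fold lay under 2. With mtPAP in PDE12+/+, they were found in 4.42% of MT-TG and 3.97% of MT-TR reads (5 of 126). MT-TG was called higher than without mtPAP and MT-TR was not, beside 12 of 22 mt-tRNAs (54.5%). Here too the MT-TR call depended on the length. It was made at each least length from 2 to 5 bases (14.3% against 1.28% at 5) and not at 1, 6, 7 or 8. With mtPAP in PDE12-/-, they were found in 46.2% and 42.2%. Both were called higher than in PDE12-/- alone, as were 12 of 22 (54.5%), and than in PDE12+/+ with mtPAP, as were 13 of 22 (59.1%). By the labels, the difference from the library without mtPAP would be 44.8 points for MT-TG and 41.1 for MT-TR in PDE12+/+, both called, and -4.33 and -0.40 in PDE12-/-, neither called.

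**Figure D2:**
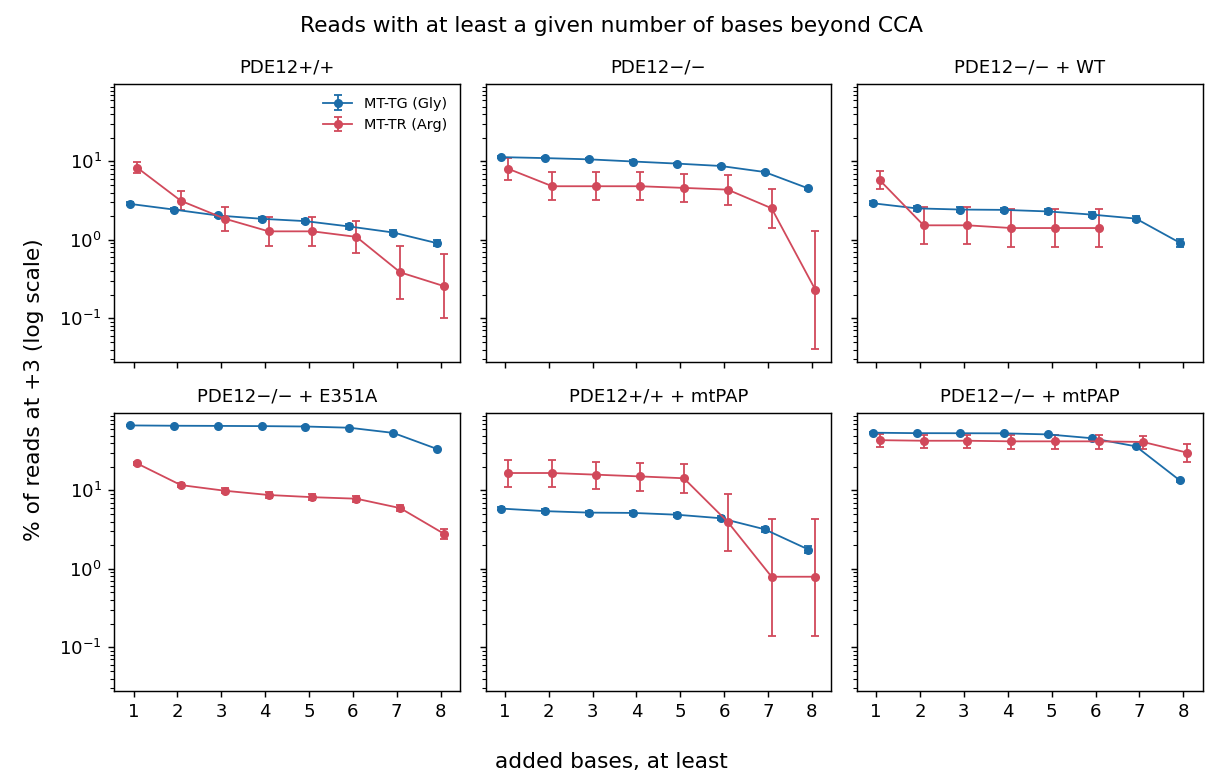
Percentage of reads at +3 (y axis, log scale) with at least the number of added bases on the x axis, in 1 panel per library, for MT-TG (blue) and MT-TR (red) with 95% Wilson intervals. Lengths with 0 reads are not drawn. In PDE12+/+ the MT-TR line falls from 8.35% at 1 base to 3.15% at 2 bases and meets that of MT-TG at 3 bases. In PDE12-/- with mtPAP the MT-TR line stays nearly flat up to 6 bases (43.7% to 42.2%), and that of MT-TG falls from 54.4% to 46.2%.

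The added bases were mostly A. In MT-TG, A made up 89.7% of all bases beyond CCA in PDE12+/+, 97.1% in PDE12-/-, 96.3% in PDE12-/- + WT, 98.9% in PDE12-/- + E351A, and with mtPAP 97.6% in PDE12+/+ and 99.7% in PDE12-/-. In MT-TR, it made up 90.2% in PDE12+/+, 91.7% in PDE12-/- + E351A and 100% in PDE12-/- and in both mtPAP libraries. At +4, the first added base, C was read in 233 of 1723 MT-TG reads (13.5%) and 21 of 130 MT-TR reads (16.2%) of PDE12+/+. C was also read in 241 of 1423 MT-TR reads (16.9%) and 2945 of 62885 MT-TG reads (4.68%) of PDE12-/- + E351A. In PDE12-/- it was read in 231 of 4249 MT-TG reads (5.44%) and 0 of 35 MT-TR reads. In PDE12-/- + WT these were 52 of 955 and 12 of 49. With mtPAP, C was read in 1 of 1171 MT-TG reads in PDE12+/+ and 7 of 6408 in PDE12-/-. The MT-TR counts there were 0 of 21 and 0 of 59.

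MT-TR of PDE12-/- + WT was the exception, with A in 67.6% of the bases beyond CCA. Its most frequent bases from the discriminator base on, over the positions with more than 10 reads, are shown because they depart from an A tail.
MT-TR reads, PDE12-/- + WT: aCCAaccaaa
C was read in 12 of 13 reads at +5 and at +6, where MT-ND4L encodes C. The bases that MT-ND4L encodes were also found at +2 (T, 13 of 1361 reads), at +3 (G, 13 of 848) and at +4 (C, 12 of 49), but not at +7, where 12 of 12 reads had A. In this library only 1 read had A at +5, so the 12 long MT-TR reads were not A tracts throughout. They are counted among the 49 extended reads (5.78%) and make up the 1.42% with at least 6 added bases. Positions were counted separately, so whether these reads held CCA cannot be told. In the other 5 libraries the encoded T at +2 was read in at most 2 MT-TR reads, and T at +2 of MT-TG, which MT-ND3 encodes, in 0.0292% to 0.236% of reads over the 6 libraries.

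Without mtPAP, departures from the A of CCA were more frequent in MT-TR than in MT-TG. C in place of A at +3 was read in 5.20% of MT-TR reads of PDE12+/+ (81 of 1557), 5.06% of PDE12-/- (22 of 435), 4.25% of PDE12-/- + WT (36 of 848) and 5.82% of PDE12-/- + E351A (375 of 6440). In MT-TG it was 0.128%, 1.18%, 0.184% and 1.02%. The median of the other 20 mt-tRNAs was 0.159% in PDE12+/+, where MT-TR had the highest share of the 22. In that library 94 of 1639 MT-TR reads had A at +1, which MT-ND4L encodes there, 81 had C at +3 and 81 ended after 1 added base. In PDE12-/- + WT, C at +3 and a single added base were found in 36 MT-TR reads each. They were found in 22 and 14 reads of PDE12-/-, and in 375 and 670 of PDE12-/- + E351A. The tables hold each position on its own, so whether these were the same reads cannot be told. If all reads with C at +3 were extended ones, taking them out of both counts would leave 3.32% extended in PDE12+/+ and 3.15% in PDE12-/-.

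In 2 libraries MT-TR departed further. With wild-type PDE12, 456 of 1999 reads had C at the discriminator base (22.8%) and 337 of 1361 had A at +2 (24.8%), against 0.0490% and 0.649% in MT-TG. With mtPAP in PDE12+/+, 29 of 137 reads had A at +1 (21.2%) and 18 of 126 had A at +2 (14.3%). If these 18 reads were among the 21 extended ones, 2.78% of the rest would be extended, against 6.85% in PDE12+/+ treated alike, and the difference between these libraries would turn from 8.32 to -4.08 points.

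**Figure D3:**
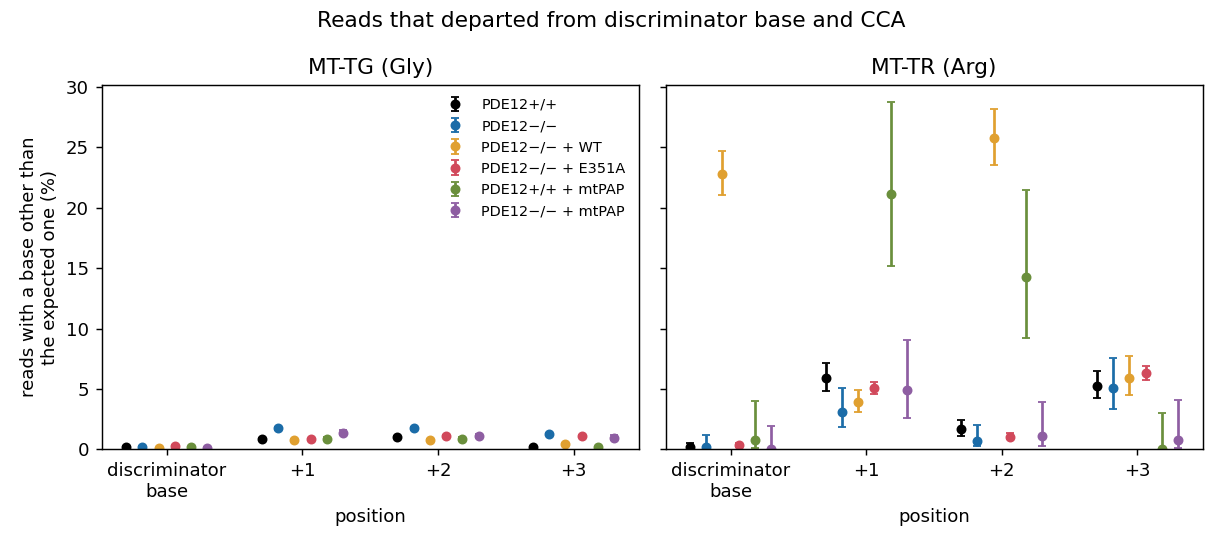
Percentage of reads (y axis) with a base other than the discriminator base, C, C and A expected at each position (x axis), for MT-TG (left) and MT-TR (right), in the 6 libraries by colour with 95% Wilson intervals. MT-TG stays under 2% throughout, while MT-TR reaches 22.8% at the discriminator base and 25.8% at +2 in PDE12-/- + WT and 21.2% at +1 in PDE12+/+ with mtPAP.

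Reads that ended short of CCA were counted against those at the discriminator base. In PDE12+/+ they were 6.58% of MT-TG reads (4223 of 64177) and 6.65% of MT-TR reads (111 of 1668), and in PDE12-/- 3.65% and 9.00%. With wild-type PDE12 they rose to 57.9% of MT-TG reads (44927 of 77528, interval 57.6% to 58.3%) and 57.6% of MT-TR reads (1151 of 1999, interval 55.4% to 59.7%). Only 1 of the other 20 mt-tRNAs, whose median was 35.7%, had a larger share there. Ends were placed by position. In MT-TR of that library, 456 of 1999 reads had C at the discriminator base and 337 of 1361 had A at +2. Part of its short reads may thus hold CCA 1 base early, which was not tested, so its share and place are less certain. MT-TG reads of that library ended at the discriminator base in 31.2%, after the first C in 7.02% and after the second C in 19.7%, and MT-TR reads in 17.7%, 14.2% and 25.7%. With E351A, 1.72% of MT-TG and 7.00% of MT-TR reads ended short of CCA. Over the reads at the discriminator base, those that ended exactly at CCA were 90.7% of MT-TG in PDE12+/+, 85.4% in PDE12-/-, 40.8% in PDE12-/- + WT and 32.0% in PDE12-/- + E351A. For MT-TR they were 85.6%, 83.7%, 40.0% and 72.4%.

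The mtPAP libraries differed in where the short reads ended. In PDE12+/+ with mtPAP, 14.2% of MT-TG reads ended at the discriminator base and 1.64% after the second C. In PDE12-/- with mtPAP, 0.507% ended at the discriminator base and 13.9% after the second C. MT-TR reads of PDE12-/- with mtPAP ended after the second C in 24.7% (48 of 194). Its 30.4% short of CCA (59 of 194 reads, interval 24.4% to 37.2%) was above all other 20 mt-tRNAs, which reached 24.2%. The mt-tRNA at 24.2%, MT-TS2, had only 256 reads at the discriminator base, so the place of MT-TR is not certain at these depths. Reads ending at CCA were 77.9% and 38.4% of MT-TG and 76.1% and 39.2% of MT-TR, with PDE12+/+ first. The labels give these libraries in the reverse order.

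**Figure D4:**
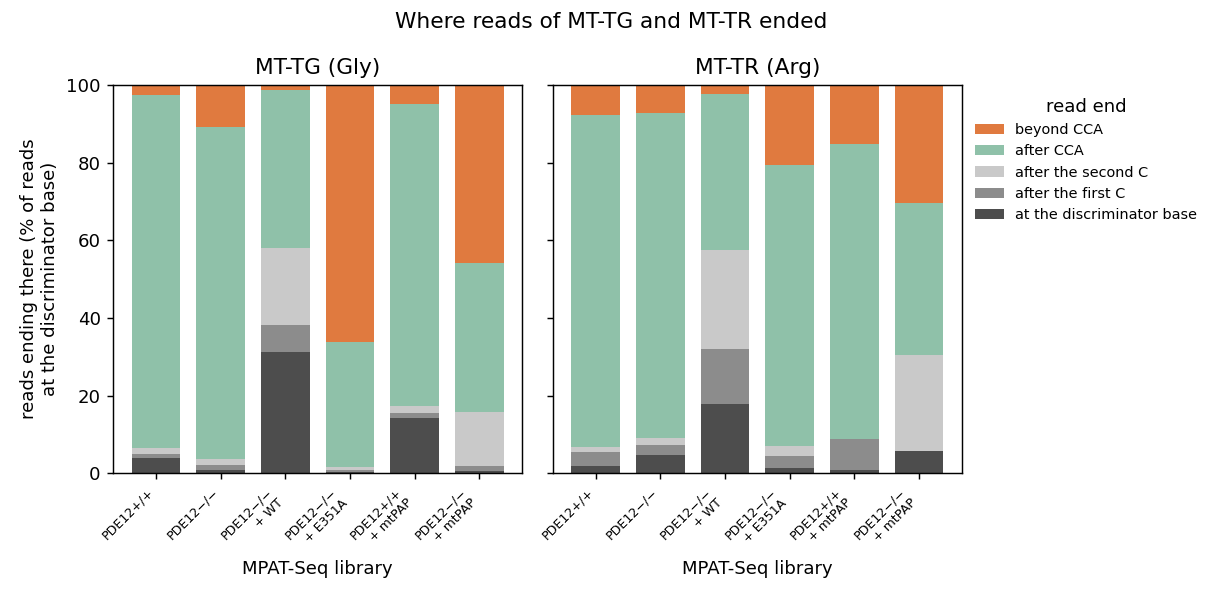
Share of reads at the discriminator base (y axis, stacked to 100%) by where they ended, for MT-TG (left) and MT-TR (right) in the 6 libraries (x axis). The grey parts, which end short of CCA, fill 57.9% and 57.6% of the bars of PDE12-/- + WT, and the orange part, beyond CCA, fills 66.2% of MT-TG and 20.5% of MT-TR in PDE12-/- + E351A.

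Among the 22 mt-tRNAs, MT-TG had a low percentage extended in 5 libraries and a middle one with E351A. Of the other 20, 2 were lower in PDE12+/+, 3 in PDE12-/-, 5 in PDE12-/- + WT, 12 in PDE12-/- + E351A, and with mtPAP 5 in PDE12+/+ and 2 in PDE12-/-. For MT-TR these counts were 6, 0, 8, 1, 8 and 2, so it had the lowest value of the 22 in PDE12-/-. The next, MT-TQ (Gln), had 8.14% (14 of 172 reads, interval 4.91% to 13.2%), which cannot be told from MT-TR at these depths, and with at least 6 added bases 4 of the other 20 were lower than MT-TR. The highest there was MT-TK, the gene of mt-tRNA Lys, with 91.1%. In PDE12+/+ the shares ran from 1.47% in MT-TV (Val) to 59.8% in MT-TI (Ile). With E351A they ran from 16.9% in MT-TV to 97.0% in MT-TH (His), and with wild-type PDE12 from 1.06% in MT-TQ to 87.2% in MT-TS2, 1 of the 2 mt-tRNAs for Ser. With mtPAP they ran from 0.253% in MT-TQ to 87.2% in MT-TP (Pro) in PDE12+/+, and from 12.1% in MT-TL2, 1 of the 2 for Leu, to 98.4% in MT-TK in PDE12-/-. By the mean absolute difference in percentage extended over the 6 libraries, the mt-tRNAs most like MT-TG were MT-TM (Met, 5.66 points), MT-TC (Cys, 5.75) and MT-TW (Trp, 12.9). Those most like MT-TR were MT-TV (8.33), MT-TL2 (10.3) and MT-TC (10.5). MT-TG and MT-TR were 13.1 points apart by this measure.

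RNA-seq barely recorded either mt-tRNA. The sense counts of MT-TG were 2, 3 and 1 in PDE12+/+ and 4, 2 and 2 in PDE12-/-, and those of MT-TR were 1, 0 and 1 and 0, 1 and 0. Both genotypes thus lay at 1 to 4 counts per sample for MT-TG and at 0 or 1 for MT-TR, and no fold is given. More reads lay on the opposite strand of MT-TG, with 6, 13 and 11 counts in PDE12+/+ and 31, 5 and 17 in PDE12-/-, and these overlapped. MT-ND3 between them had 884, 2045 and 1713 sense counts in PDE12+/+ and 2213, 2173 and 1858 in PDE12-/-, or 23092 ± 1772 and 24604 ± 6188 CPM (counts scaled to the total of a library by TMM, SD, n = 3). On the log2 scale PDE12-/- was higher by 0.09 with a standard error of 0.34 (adjusted p = 0.978 in edgeR's quasi-likelihood test). The outer neighbours MT-CO3, a cytochrome c oxidase subunit, and MT-ND4L, a complex I subunit, changed by -0.13 (standard error 0.34, adjusted p = 0.963) and 0.38 (standard error 0.34, adjusted p = 0.762) in the same edgeR test. Of the 68 features with counts, edgeR called 0 (0%), and 5 had an unadjusted p under 0.05, as had 3 in DESeq2, which also called 0. With the replicate number as a block, edgeR called 4, which were sense MT-CO1, MT-CO2 and MT-ND2 and antisense MT-TN, and MT-ND3 had an adjusted p of 0.973. Since only mitochondrial genes were counted and each is relative to the rest, a change shared by all would not be seen.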

How the data were processed

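MPAT-Seq was analysed for 1 library of each of 6 conditions and RNA-seq for 3 samples of each genotype. For MPAT-Seq, the authors ligated a linker to 3′ ends of total RNA, amplified each mt-tRNA with a gene-specific primer, removed primers with cutadapt, mapped reads with Bowtie2 to a GRCh38-based reference with uncalled positions added after mt-tRNAs, and deposited whole-number counts of reads and of each base per position, an unnormalized unit of other kind than a gene count. Reverse transcription had to pass modified bases, and reads carry no molecular identifiers, so the shares are shares of reads and the intervals cover counting error only. For RNA-seq, the authors removed rRNA, trimmed with Trim Galore, mapped with Bowtie2, parted strands with SAMtools and deposited raw counts per mitochondrial gene and strand. Versions of these tools are not given in the sources used here.

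Intervals are 95% Wilson and Newcombe intervals (SciPy 1.17.1, Python 3.11.15), and the floor is 3 reads of those at +3. In 1 table the block named MT-TT with the length of MT-TD was taken as MT-TD, and MT-TY was moved by 1 base in 3 tables. RNA-seq counts, made sense or antisense by GENCODE release 44 strands, entered a fit in edgeR 4.0.16 (R 4.3.3, TMM, common dispersion, quasi-likelihood test on genotype, Benjamini-Hochberg over 68 features, threshold 0.05). DESeq2 1.42.0 was an alternative. Counts summed to 36338 to 104708 per sample, over mitochondrial genes only. Nothing says that the samples came from separate cultures. Same-numbered samples of both genotypes deviated together (correlations 0.257 to 0.620 over 37 features), so a fit with the number as a block was run too. Both procedures were tested on simulated data. The reads simulated for the intervals were independent, so that test does not cover copies from amplification or spread between libraries.

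The members, gene lists and tests were chosen with earlier results of these data known. Named besides the members are MT-ND3, MT-CO3 and MT-ND4L, the 3 mt-tRNAs most like each member, and the highest and lowest mt-tRNA of a library. Primer sequences came from the study's supplement and gene sequences from GRCh38.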

Additional observations from a re-analysis of the deposited data

How the results depend on the processing

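The main limits are the depth of MT-TR, 1 library per condition and the genotype of the mtPAP libraries. Differences in percentage extended are given in percentage points, first library minus second. With reads at the discriminator base as denominator, MT-TG differed by -9.70 between PDE12-/- + WT and PDE12-/-, 55.3 with E351A, 2.17 with mtPAP in PDE12+/+, 34.9 with mtPAP in PDE12-/- and 40.9 between genotypes under mtPAP, and the last 2 were 23.1 and 15.2 for MT-TR. Counting only A at +4, MT-TG differed by -7.96 with WT, 53.5 with E351A and 3.53 with mtPAP in PDE12+/+, and MT-TR by 9.22 with E351A. Reads at +5 in place of +4 gave 6.86 for MT-TR with E351A. Where reads with C at +3 were all taken as extended and left out, MT-TG differed by 7.53 between PDE12-/- and PDE12+/+, -7.53 with WT and 56.8 with E351A. The next 2 choices were made after seeing the data. Where reads with A at +2 were all taken as extended and left out, MT-TG differed by 7.82 between PDE12-/- and PDE12+/+, -7.81 with WT, 57.2 with E351A and 44.0 with mtPAP in PDE12-/-, and MT-TR by 40.1 between genotypes under mtPAP and -4.08 with mtPAP in PDE12+/+, where the sign turned. For MT-TR with WT this gave no value, since more reads had A at +2 than were extended. Reads at +9 in place of +4 gave, for MT-TG, 7.27 between PDE12-/- and PDE12+/+, -6.65 with WT, 54.2 with E351A, 37.5 with mtPAP in PDE12-/- and 41.8 between genotypes under mtPAP, and for MT-TR 3.28 between PDE12-/- and PDE12+/+, 3.47 with E351A and 38.3 between genotypes under mtPAP. By the labels, mtPAP changed MT-TG by 51.5 in PDE12+/+ and -5.48 in PDE12-/-, MT-TR by 35.4 and 8.62, and the genotypes under mtPAP differed by -48.5 and -27.0. The cause of these changes was not tested beyond what each choice leaves out.

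When 500 reads at +3 were required of each library, 15 mt-tRNAs were left and MT-TR dropped out. MT-TG then had 3 lower mt-tRNAs in place of 5 in PDE12-/- + WT, and in the other 5 libraries the count stayed within 1.5 times. With tails of at least 2 bases only, MT-TG means were 5.81 in PDE12+/+, 6.59 in PDE12-/-, 6.77 with WT, 7.22 with E351A and 6.53 and 6.75 with mtPAP, and MT-TR means were 3.96, 6.43, 5.77 and 5.71 in the 4 libraries without mtPAP.

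For RNA-seq, edgeR called 4 features with the replicate number as a block and 2 with library totals without TMM, where it had called 0. It called 0 in each fit without 1 sample. The log2 fold change of MT-ND3 ranged from -0.11 (without PDE12-/- replicate 2) to 0.25 in those fits, and that of antisense MT-TG from -0.24 (without PDE12-/- replicate 1) to 0.74. With the block they were 0.06 and 0.20. Neither passed the threshold under any alternative run, and the filter of at least 10 counts left antisense MT-TG out.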
